A study of Mus musculus with 18 samples.

Results

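The Hox genes of the cultured fetal mouse kidney are described here: the 39 protein-coding Hox genes named in the deposited expression table, of 78317 genes in all. A gene was taken as a member when its symbol read Hoxa, Hoxb, Hoxc or Hoxd followed by a number, which gave 11 genes in cluster A, 10 in cluster B, 9 in cluster C and 9 in cluster D. The kidneys came from embryonic day 14 wild-type embryos of the outbred CD1 strain and had grown for 72 hours in a gel of collagen I and matrigel before RNA was sequenced. Every kidney had first been exposed for 4 hours to an AAV2 vector, a virus used for gene delivery, in which the CAG promoter drives a red mCherry reporter and 2 mir30 shRNA cassettes. The cassettes were aimed at 2 regions of Mylk (Mylk-shRNA), at Rock1 and Rock2 (Rock1/2-shRNA), or carried the Rock1 and Rock2 targets in random order (scramble-shRNA). Explants of a condition were pooled, dissociated and sorted by mCherry: the brightest 25% of cells formed the positive fraction and the dimmest 50% the negative one. This gave 6 groups of vector and fraction with 3 libraries each, 1 from each of 3 litters, so that the 18 libraries came as positive and negative pairs from 9 cultures. The negative cells had been exposed to the same vectors, so no group was free of virus, and each library is a mixture of kidney cell types.

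Hox genes encode transcription factors with a homeodomain that give cells their position along the body axis. In mammals they lie in 4 clusters, A to D, on separate chromosomes, and genes at matching places in the clusters form paralog groups, numbered from 1 at the end active in the head and hindbrain to 13 at the end active in the tail, limb tips and genitalia. Neighbours in a cluster share enhancers and chromatin state, while paralogs in different clusters have similar proteins and can stand in for one another. In the kidney the Hox11 paralogs act with Eya1 and Pax2 to switch on Six2 and Gdnf in the nephron-forming mesenchyme, the Hox10 paralogs are needed in the stroma, and Hoxb7 is best known from the ureteric bud.

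The libraries held 3121624 to 12170830 counts. Hox genes together made up 1165 to 1651 CPM, a unit in which each library's counts are scaled to the same total. Markers of the labelled tissue were present: the 6 nephron progenitor markers summed to 420 to 566 CPM in the positive and 457 to 958 CPM in the negative libraries. In contrast, the podocyte gene Nphs1 reached at most 0.96 CPM in any library. The targeted transcripts were not detectably lower. Mylk in the positive fraction was 175 ± 10.7 CPM (SD, n = 3) with Mylk-shRNA against 197 ± 14.7 CPM with scramble-shRNA, 87.9% of the control with a 95% interval of 71.3 to 108%. Rock1 and Rock2 in the positive fraction with Rock1/2-shRNA were at 94.1% (76.7 to 115%) and 88.7% (70.8 to 111%) of the control. Libraries of litter 3 had more mitochondrial counts, 3.95 to 9.16% against 2.01 to 4.02% in litters 1 and 2, so results that rest on litter 3 are also given without it.

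Of the 39 genes, 33 had enough counts to be tested. Hoxa6, Hoxa13, Hoxb1, Hoxb13, Hoxc12 and Hoxc13 did not pass the count filter. Hoxc12 had no count in any library, which allows up to 0.961 CPM in the shallowest and 0.246 CPM in the deepest library, for counting error only. Hoxb13, a gene of the tail bud and prostate, was at 0 in all 9 positive libraries and reached 0.22 CPM in the negative ones. At the filter's edge, the highest member that did not pass was Hoxa6, with a mean of 0.57 CPM, while Hoxd1 passed with a mean of 1.00 CPM. Of the paralog group 13 genes only Hoxd13 was tested, at a mean of 1.54 CPM. Members above 5 CPM on average numbered 28, and their paralog groups ran from 2 to 12.

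**Figure D1:**
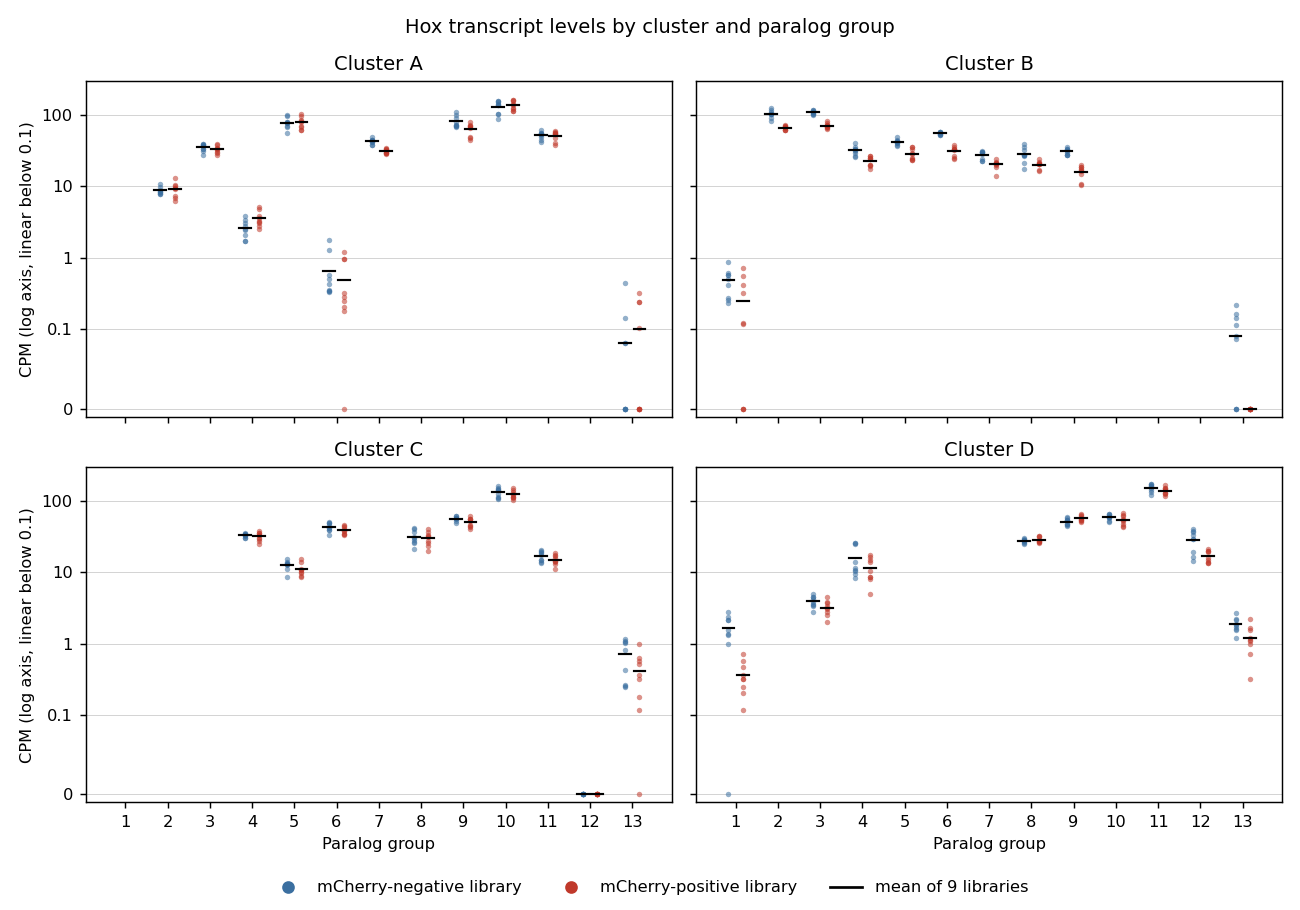
Levels of Hox genes in CPM (log axis, linear below 0.1) against its paralog group, 1 panel per cluster; points are libraries (blue, 9 mCherry-negative; red, 9 mCherry-positive) and bars are means of 9. The group 13 genes lay below 2 CPM on average in both fractions, while the highest levels were those of groups 10 and 11.

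To compare genes with each other, CPM was divided by the length of each gene's annotated exons in kilobases (kb; GENCODE M21 on GRCm38, a different build from the one the reads were mapped to). On this scale the highest mean level over the 18 libraries was that of Hoxc10, with 67.3 CPM per kb, followed by Hoxa5 with 41.9, Hoxa10 with 41.2, Hoxd11 with 34.8 and Hoxd10 with 31.4 CPM per kb. Hoxa5, known for its role in the lung and the neck skeleton, was the only one of these 5 from outside groups 10 and 11. The order depends on the length used: with the longest coding transcript in place of all exons, a choice made after the data were seen, Hoxd11 rose to 132 CPM per kb and Hoxb2 replaced Hoxd10 among the 5. Hoxc11, the cluster C partner of Hoxa11 and Hoxd11, stood at 7.93 CPM per kb, against 22.7 for Hoxa11.

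The clearest difference among Hox genes was between the mCherry fractions, and it was most uniform in cluster B. All 8 tested genes of cluster B, Hoxb2 to Hoxb9, fell in the positive fraction, from -0.51 for Hoxb7 to -1.03 for Hoxb9 on the log2 scale. None of the 7 tested genes of cluster C passed the test in the fit without litter as a block. In that fit 2 of 9 in cluster A and 4 of 9 in cluster D did. Falls as large as that of Hoxb7 were thus not confined to cluster B. Among the called genes outside it were Hoxa7 (-0.51), Hoxd1 (-2.38), Hoxd12 (-0.84) and Hoxd13 (-0.67). In all, 14 of 33 tested Hox genes were called lower and 0 higher at an adjusted p under 0.05, averaged over the 3 vectors. Among all 16544 genes tested, 16% were called lower and 17.6% higher in that comparison. The median log2 fold change was -0.27 over the Hox genes and -0.03 over all genes. Of the 33 values, 29 were below 0, and 20 had an unadjusted p under 0.05, against 42% of all genes in either direction. With litter as a block, Hoxc5, Hoxc6, Hoxc9, Hoxc10, Hoxc11, Hoxd3, Hoxd4 and Hoxd10 were called lower as well, and Hoxa4 higher. The log2 fold changes of these cluster C genes ran from -0.16 to -0.29. That fit called 45.8% of all genes in either direction, against 33.6% without the block. Because the libraries are bulk samples, fewer cells of an expressing type and less RNA per cell cannot be told apart.

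**Figure D2:**
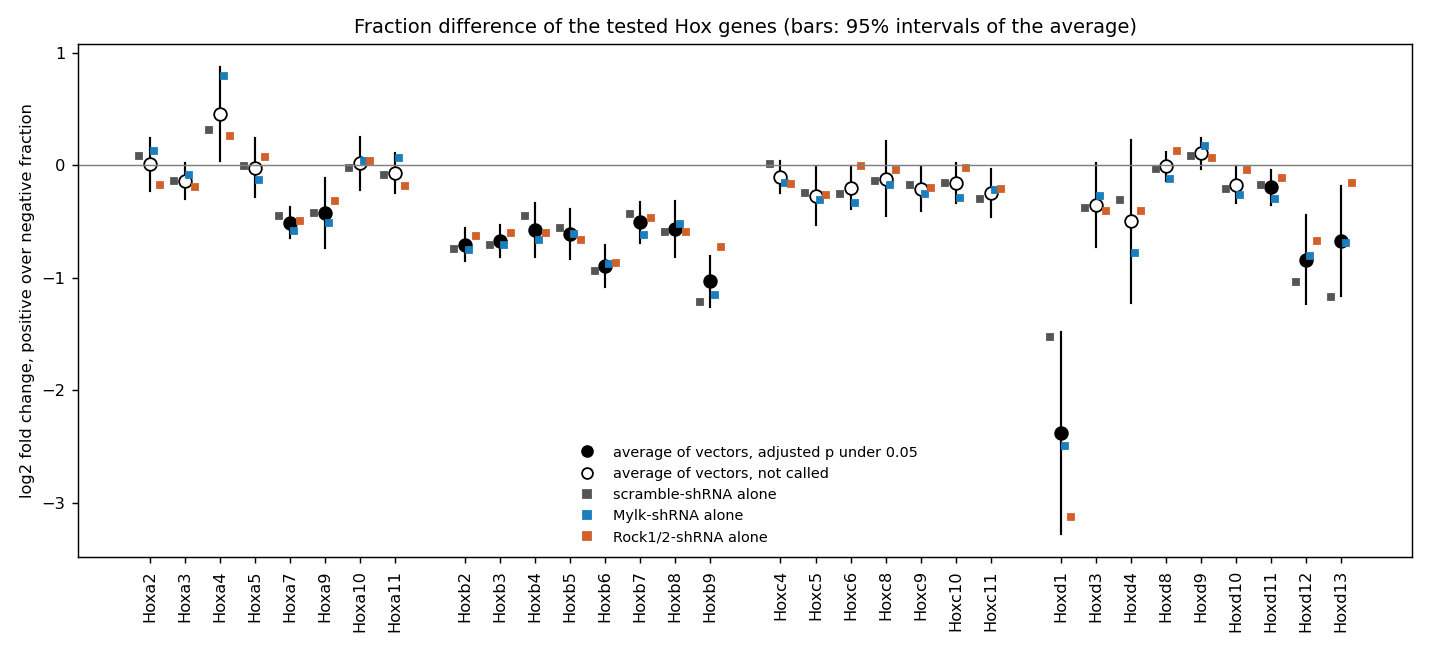
Log2 fold changes of tested Hox genes, positive over negative fraction, in cluster and paralog order; circles with 95% intervals are the average over vectors (filled, adjusted p under 0.05) and squares are the 3 vectors alone. The 8 cluster B genes all lie between -0.51 and -1.03, while cluster C stays between -0.11 and -0.27.

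Hoxb9 and Hoxb6 changed most in cluster B. Hoxb9, a gene of the trunk and lumbar region, had 27.8, 31.9 and 35.4 CPM as lowest, median and highest of the 9 negative libraries, and 10.4, 16.8 and 20.3 CPM in the positive ones. Its positive libraries all lay below its negative ones, and the fitted level was 48.9% of that in the negative fraction (log2 fold change -1.03, SE 0.11, adjusted p = 5.3e-07). Hoxb6 had 53.1, 56.8 and 58.2 CPM in the negative and 24.2, 33.3 and 38.3 CPM in the positive fraction. These ranges also stood apart (log2 fold change -0.90, SE 0.09, adjusted p = 2.8e-07). Hoxb6 and Hoxb9 pattern the rib cage with their paralogs.

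At the rostral end, Hoxb2 and Hoxb3, which pattern the hindbrain, were the most abundant cluster B genes in CPM. Hoxb2 had 83.3, 103 and 125 CPM in the negative and 61.3, 67.3 and 72.4 CPM in the positive fraction (log2 fold change -0.71, SE 0.07, adjusted p = 2.8e-07). Hoxb3 had 100.3, 111 and 118 CPM against 64.6, 71.0 and 81.5 CPM (log2 fold change -0.67, SE 0.07, adjusted p = 2.6e-07). Neither gene's libraries overlapped between the fractions. Hoxb5 was also without overlap, at 36.4 to 49.6 CPM in the negative and 23.4 to 35.7 CPM in the positive libraries (log2 fold change -0.61, adjusted p = 1.7e-04).

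Hoxb7 showed the smallest change of the cluster. Its negative libraries had 22.6, 29.0 and 31.3 CPM and its positive ones 14.1, 21.2 and 24.0 CPM as lowest, median and highest (log2 fold change -0.51, SE 0.09, adjusted p = 1.5e-04). The ranges overlapped, although the positive library was the lower one in all 9 cultures. Hoxb4 fell by 0.57 (adjusted p = 6.4e-04), likewise in 9 of 9 cultures. Hoxb8 fell by 0.57 (adjusted p = 0.0010) in 7 of 9 cultures. The 2 exceptions for Hoxb8 were the litter 3 cultures with scramble-shRNA and Mylk-shRNA, with 21.1 against 21.6 CPM and 17.7 against 21.7 CPM in the negative and positive fraction.

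**Figure D3:**
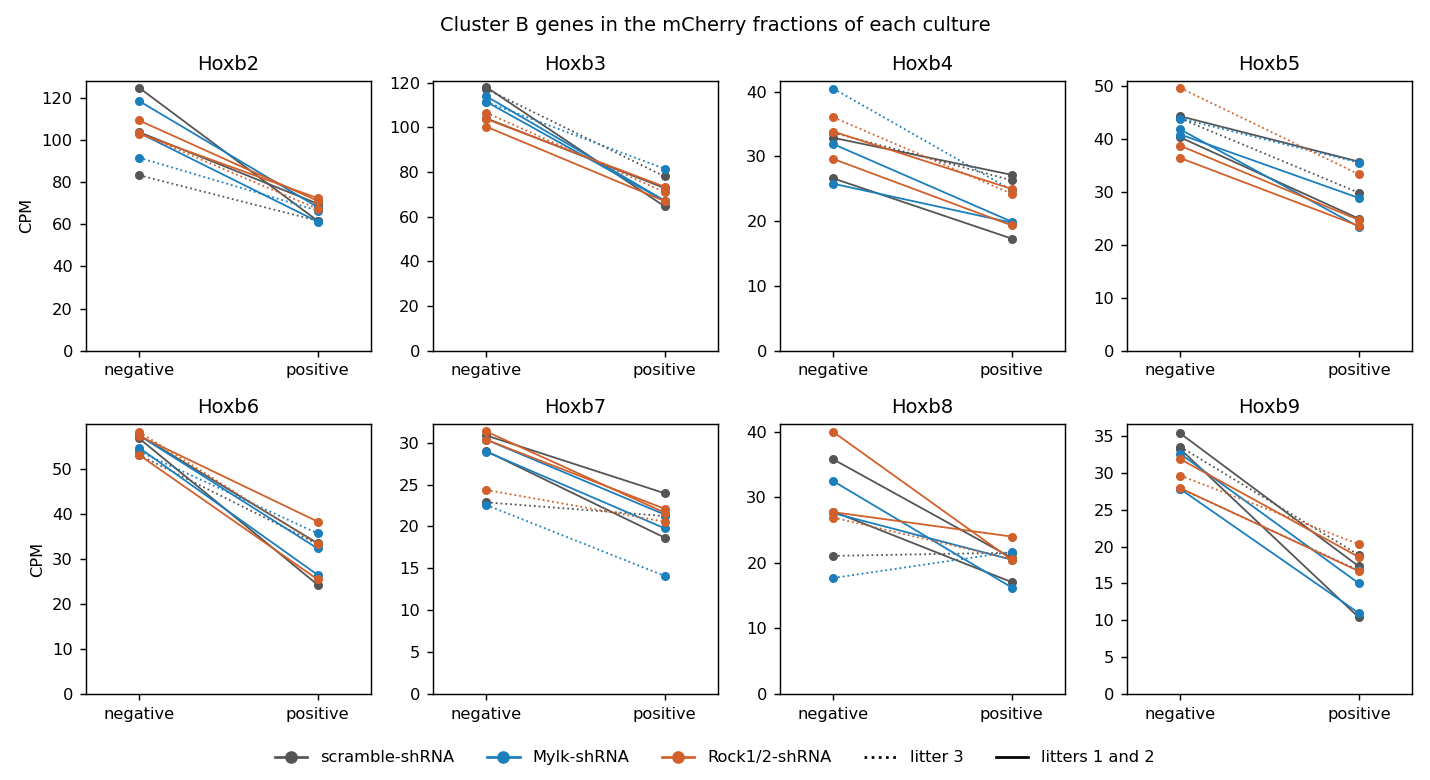
CPM of the 8 tested cluster B genes in the negative and positive fraction, with 1 line per culture coloured by vector (dotted, litter 3). Lines slope down in all 9 cultures for each gene except Hoxb8, where 2 of the litter 3 lines rise.

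Summed over the cluster, the cluster B genes had 433 ± 15.8 CPM (SD, n = 9) in the negative and 278 ± 21.3 CPM in the positive fraction, a ratio of 0.64. The same ratio was 0.94 for cluster A, 0.92 for cluster C and 0.91 for cluster D. Cluster B made up 26.5 to 29.4% of all Hox counts in the negative libraries and 18.7 to 23.4% in the positive ones, so these ranges did not overlap. Within each culture, the median log2 ratio of positive to negative CPM over the cluster's members with at least 5 CPM was lowest for cluster B in 9 of 9 cultures. It ran from -0.79 to -0.49 over the cultures for cluster B, from -0.29 to 0.05 for cluster A, from -0.30 to 0.06 for cluster C and from -0.32 to 0.06 for cluster D. These sums and medians are descriptions of the members and carry no test. The cluster B ranges of these culture medians lay outside those of each other cluster.

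The decline in cluster B can be read against paralogs, which share a position number but lie on another chromosome. There were 13 pairs of a cluster B gene and a same-group paralog with both genes at a mean of at least 5 CPM. The CPM ratio was lower in the positive fraction in all 9 cultures for 8 pairs. Since the cluster B genes were called lower in these same libraries, the ratios describe that fall again and add no separate support. Some genes enter several pairs, as Hoxb9 does with Hoxa9, Hoxc9 and Hoxd9, and other gene pairs were not examined. Hoxb9 to Hoxd9 had a median ratio of 0.59 in the negative and 0.27 in the positive libraries, with ranges of 0.52 to 0.70 and 0.19 to 0.40. Hoxb6 to Hoxc6 went from a median of 1.29 to 0.80, Hoxb3 to Hoxa3 from 3.08 to 2.13 and Hoxb9 to Hoxc9 from 0.55 to 0.32. The fractions did not overlap for these 4 pairs. The ratio was lower in 4 of 9 cultures for Hoxb7 to Hoxa7, with median ratios of 0.66 in both fractions, and for Hoxb4 to Hoxd4, with medians of 2.30 and 2.24.

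The sequences just upstream of 2 cluster B genes that fell, and of an uncalled paralog of Hoxb8, are shown so that the promoters can be compared, since cluster B members moved together. Each is the 250 bases before the RefSeq start on GRCm38.p6, on the plus strand, read 5′ to 3′, with motif matches in capitals. They lie at chr11:96281655-96281904 for Hoxb8, chr11:96318017-96318266 for Hoxb4 and chr2:74704365-74704614 for Hoxd8.
Hoxb8: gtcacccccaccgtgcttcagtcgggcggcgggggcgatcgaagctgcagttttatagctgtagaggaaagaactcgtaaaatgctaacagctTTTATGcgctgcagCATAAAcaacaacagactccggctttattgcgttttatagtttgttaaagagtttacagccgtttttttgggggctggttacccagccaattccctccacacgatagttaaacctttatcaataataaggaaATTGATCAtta
Hoxb4: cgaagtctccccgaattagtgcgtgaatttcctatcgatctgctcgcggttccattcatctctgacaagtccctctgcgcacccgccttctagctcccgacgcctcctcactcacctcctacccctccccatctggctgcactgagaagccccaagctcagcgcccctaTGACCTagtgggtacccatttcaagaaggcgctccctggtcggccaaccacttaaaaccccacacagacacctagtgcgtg
Hoxd8: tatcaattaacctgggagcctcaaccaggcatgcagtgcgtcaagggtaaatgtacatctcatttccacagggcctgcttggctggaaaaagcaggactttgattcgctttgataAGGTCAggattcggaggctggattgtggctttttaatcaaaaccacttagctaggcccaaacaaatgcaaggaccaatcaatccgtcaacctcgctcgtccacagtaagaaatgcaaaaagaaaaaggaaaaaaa
Both strands were searched for TGATNNAT (a Pbx and Hox pair), TGACAG (Meis and Pknox), TTTATG (Cdx) and AGGTCA (a nuclear receptor element). TGACAG and the reverse complement of AGGTCA begin with the same 4 letters, and overlapping matches were counted for each motif. Hoxb8 held 2 TTTATG and 1 TGATNNAT match, Hoxb4 held 1 AGGTCA match and Hoxd8 held 1 AGGTCA match. Of all 32851 promoter windows of this length, 10.8% held TTTATG, 7.68% TGATNNAT, 15.9% TGACAG and 14% AGGTCA. RefSeq windows were at hand for 22 Hox genes. A match describes the letters only.

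In cluster A, Hoxa7 and Hoxa9 were called lower. Hoxa7 had 37.6, 43.5 and 49.2 CPM in the negative and 28.5, 30.2 and 34.8 CPM in the positive fraction, without overlap (log2 fold change -0.51, SE 0.07, adjusted p = 8.1e-06). Hoxa9, a gene also known from blood progenitors, had 67.9, 73.5 and 110 CPM against 44.8, 67.2 and 79.5 CPM (log2 fold change -0.42, SE 0.15, adjusted p = 0.035). Its ranges overlapped and its call was lost without litter 3 (adjusted p = 0.0515). Hoxa4 leaned the other way, with 2.64 ± 0.73 CPM (SD, n = 9) in the negative and 3.60 ± 0.88 CPM in the positive fraction. The difference in Hoxa4 did not pass the test (log2 fold change 0.46, SE 0.20, adjusted p = 0.086). Of the other uncalled genes of cluster A, 3 had log2 fold changes of 0.01 (Hoxa2), -0.14 (Hoxa3) and -0.02 (Hoxa5). In the rostral part of cluster C they were -0.11 (Hoxc4), -0.27 (Hoxc5), -0.20 (Hoxc6) and -0.12 (Hoxc8), none of them called.

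In total 6 Hox genes had positive libraries that all lay below the negative ones: Hoxa7, Hoxb2, Hoxb3, Hoxb5, Hoxb6 and Hoxb9. Among all genes tested, 2.06% showed such a separation with the positive fraction lower and 6.65% with it higher.

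Cluster D spanned the widest range of values, from -2.38 for Hoxd1 to 0.10 for Hoxd9 on the log2 scale. Hoxd1 had 0, 1.57 and 2.77 CPM in the negative and 0.12, 0.32 and 0.71 CPM in the positive fraction. Its log2 fold change of -2.38 (SE 0.43, adjusted p = 2.5e-04) rests on 166 counts in all libraries together. Hoxd12 had 14.6, 29.7 and 40.5 CPM against 13.3, 15.8 and 21.3 CPM, lower in 9 of 9 cultures though the ranges overlapped (log2 fold change -0.84, SE 0.19, adjusted p = 0.0021). Hoxd13, which shapes digits and genitalia, had 1.2, 1.85 and 2.66 CPM against 0.32, 1.13 and 2.24 CPM (log2 fold change -0.67, SE 0.23, adjusted p = 0.032). That call was lost without litter 3 (log2 fold change -0.45, adjusted p = 0.17) and with no filter (adjusted p = 0.135). DESeq2's test did not call Hoxd13 either (adjusted p = 0.071). Hoxd8, Hoxd9 and Hoxd10, in the middle of the cluster, were not called, nor were Hoxd3 (log2 fold change -0.35) and Hoxd4 (-0.50).

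The Hox9 paralogs act in the trunk, and differences between them were not tested. Hoxb9 and Hoxa9 were called lower, as given above with the limits on Hoxa9. Hoxc9 had 49.2, 57.0 and 61.7 CPM in the negative and 40.5, 52.9 and 61.7 CPM in the positive fraction (log2 fold change -0.21, SE 0.09, adjusted p = 0.087), and was called lower with litter as a block (-0.22, adjusted p = 0.0039). Hoxd9 had 44.5, 53.4 and 58.9 CPM against 51.2, 56.4 and 65.3 CPM (log2 fold change 0.10, adjusted p = 0.26). Hoxd9 was higher in the positive fraction in 6 of 9 cultures.

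Hox10 genes, the stromal regulators, did not pass the test without a block. With litter as a block, Hoxc10 (-0.16, adjusted p = 0.020) and Hoxd10 (-0.18, adjusted p = 0.0081) were called lower. Hoxa10 had 87.1, 138 and 160 CPM in the negative and 112, 139 and 164 CPM in the positive fraction (log2 fold change 0.02, 95% interval -0.22 to 0.25). Hoxc10 had 106, 142 and 161 CPM against 103, 122 and 150.2 CPM (log2 fold change -0.16, 95% interval -0.34 to 0.02). Hoxd10 had 51.5, 59.7 and 65.3 CPM against 42.9, 54.6 and 68.0 CPM (log2 fold change -0.17, 95% interval -0.34 to -0.01, adjusted p = 0.10). The libraries overlapped for all 3 genes. As a group, the Hox10 genes took 20.9% of Hox counts in the negative and 24.2% in the positive fraction, the largest share of any paralog group in both.

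Among the Hox11 genes, which drive nephron formation, Hoxd11 was called lower without a block and Hoxc11 in addition with litter as a block (-0.25, adjusted p = 0.015). Hoxd11 had 122, 159.7 and 175 CPM in the negative and 117, 141 and 165 CPM in the positive fraction (log2 fold change -0.20, SE 0.07, adjusted p = 0.048), in 8 of 9 cultures. Hoxa11 had 41.5, 53.6 and 61.9 CPM against 38.5, 54.6 and 59.9 CPM (log2 fold change -0.07, 95% interval -0.24 to 0.11). Hoxc11 had 13.4, 17.7 and 20.8 CPM against 11, 14.5 and 18.6 CPM (log2 fold change -0.25, SE 0.10, adjusted p = 0.070). The Hoxd11 value lay at the threshold, and its call was lost in edgeR's test with no filter (adjusted p = 0.135). The call was also lost in 14 of the 19 fits that left out a library or litter 3. The call held there only without litter 3 or without 1 of these libraries: litter 3 of the Mylk-shRNA and scramble-shRNA negative fractions, or litter 1 of the Mylk-shRNA and scramble-shRNA positive fractions (adjusted p up to 0.107 in the others).

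The other called members with calls that hung on single libraries were Hoxa9 and Hoxd13. Hoxa9 lost its call without any of litter 3 of the 3 negative groups or litter 2 of the 3 positive groups (adjusted p up to 0.082). Hoxd13 lost it without any of 9 libraries: litter 2 of each negative group, litter 3 of the Rock1/2-shRNA negative group, litter 2 of the Mylk-shRNA positive group, litters 2 and 3 of the Rock1/2-shRNA positive group, and litters 1 and 3 of the scramble-shRNA positive group. In the average over vectors, the cluster B calls and those of Hoxa7, Hoxd1 and Hoxd12 held in all 24 alternatives run for each. Without litter 3 the fit called 16 Hox genes, 15 lower and Hoxa4 higher, and all 8 in cluster B. It called 38% of all genes in either direction, against 33.6% with litter 3 included.

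Litters were the blocks of the experiment, and fitting the litter as a block raised the number of called Hox genes from 14 to 23. This fit called 45.8% of all genes in either direction, against 33.6% without the block. It kept the 14 calls and added Hoxa4 as the only higher one (log2 fold change 0.50, adjusted p = 0.024). The 8 added lower calls were Hoxc5, Hoxc6, Hoxc9, Hoxc10, Hoxc11, Hoxd3, Hoxd4 and Hoxd10, with log2 fold changes of -0.16 (Hoxc10) to -0.46 (Hoxd4). With the block, then, 5 of the 7 tested cluster C genes were called lower, each by less than any cluster B gene in the fit without the block. With each culture as a block, 21 were called, 20 of them lower (43.9% of all genes in either direction).

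With each vector on its own, cluster B had the lowest median of the clusters, while the order of the other three varied. With scramble-shRNA 6 of 33 were called lower (4.85% of all genes), with Mylk-shRNA 9 (5.14%) and with Rock1/2-shRNA 7 (4.3%), and none was called higher (7.43%, 8.07% and 6.94% of all genes in the same order). Hoxa7, Hoxb2, Hoxb3, Hoxb6 and Hoxb9 were called with each vector. With scramble-shRNA the Hoxa7 call was lost in edgeR's test without litter 3 (adjusted p = 0.067). It was also lost with no filter (adjusted p = 0.090) and with only the groups compared (adjusted p = 0.056). In addition Hoxd12 was called with scramble-shRNA (log2 fold change -1.04, adjusted p = 0.044), Hoxb5 and Hoxd1 with both targeting vectors, and Hoxb4 and Hoxb7 with Mylk-shRNA. The Hoxd12 call with scramble-shRNA was lost with no filter (adjusted p = 0.22) and with only the groups compared (adjusted p = 0.084). With the litter block the counts were 13, 18 and 11, against 23.3%, 24.3% and 20.4% of all genes in either direction. Leaving out litter 2 of the Rock1/2-shRNA positive group left 3 calls with Rock1/2-shRNA. At an unadjusted p under 0.05, 14 of 33 passed with Mylk-shRNA, against 25.6% of all genes. The median over cluster B was -0.65 with scramble-shRNA, -0.69 with Mylk-shRNA and -0.62 with Rock1/2-shRNA on the log2 scale.

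The shRNA vectors were compared next, to ask whether lowering Mylk or the Rock kinases altered Hox levels. No Hox gene passed the test in any of the 6 vector comparisons, and neither did any other gene (0% called with edgeR). At an unadjusted p under 0.05, 0 of 33 Hox genes passed between Mylk-shRNA and the scramble control in either fraction, where 1.56% of all genes did among positive and 1.72% among negative libraries. For Rock1/2-shRNA against scramble-shRNA, 1 passed in the positive fraction (0.876% of all genes) and 0 in the negative (1.21%). Between the targeting vectors, 2 passed in the positive fraction (1.2% of all genes) and 0 in the negative (0.731%). DESeq2's test also called 0 Hox genes in each of them. The 95% intervals of 28 to 30 of the 33 members, depending on the comparison, lay wholly between a 2-fold fall and a 2-fold rise, and smaller changes may have gone undetected. Since the targeted transcripts themselves were not detectably lower, these comparisons set vectors against each other and carry no measured knockdown.

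The Hox genes with the smallest p are given as values. In the positive fraction Hoxd13 had 0.71, 1.1 and 0.32 CPM in litters 1, 2 and 3 with scramble-shRNA, 1.55, 1.19 and 1.13 CPM with Mylk-shRNA and 2.24, 1.66 and 0.98 CPM with Rock1/2-shRNA. The 3 Rock1/2-shRNA values exceeded the scramble value of the same litter (log2 fold change 0.99, SE 0.46, unadjusted p = 0.045, adjusted p = 1.0), on few counts. Hoxc4 had 38.2, 33.1 and 33.3 CPM with scramble-shRNA, 35.5, 30.7 and 24.8 CPM with Mylk-shRNA and 35.2, 29.7 and 27.7 CPM with Rock1/2-shRNA. Both targeting vectors were below the control in each litter for Hoxc4 (log2 fold changes -0.20 and -0.19, adjusted p = 1.0 for each). Hoxa2 in the positive fraction was at 10.7 ± 2.08 CPM (SD, n = 3) with Mylk-shRNA, 8.02 ± 2.12 CPM with Rock1/2-shRNA and 8.70 ± 1.56 CPM in the scramble control. The difference in Hoxa2 between the targeting vectors was 0.47 on the log2 scale (unadjusted p = 0.031, adjusted p = 1.0).

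Hoxb9 was the only cluster B gene with an unadjusted p under 0.05 in a vector comparison. In the positive fraction it had 17.3, 10.4 and 18.9 CPM with scramble-shRNA, 11, 15 and 16.8 CPM with Mylk-shRNA and 16.7, 18.6 and 20.3 CPM with Rock1/2-shRNA. The values of the vectors overlapped, and the Mylk-shRNA and Rock1/2-shRNA groups differed by -0.44 (unadjusted p = 0.044, adjusted p = 1.0). The fraction difference of Hoxb9 was -1.22 with scramble-shRNA, -1.15 with Mylk-shRNA and -0.72 with Rock1/2-shRNA. The test of the difference between the last and the first gave 0.49 (SE 0.26, unadjusted p = 0.079, adjusted p = 1.0). No Hox gene passed either interaction test, and none had an unadjusted p under 0.05 there, where 1.31% of all genes did for Mylk-shRNA and 0.876% for Rock1/2-shRNA. Hoxd13 with Rock1/2-shRNA (1.01, SE 0.58) was among the 3 smallest p, on low counts.

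The negative fraction gave smaller values. Hoxa5 was at 89.0 ± 16.5 CPM with Mylk-shRNA, 70.6 ± 13.1 CPM with Rock1/2-shRNA and 74.7 ± 5.53 CPM in the scramble control (SD, n = 3), a log2 difference of 0.32 between the targeting vectors and 0.25 from the control (adjusted p = 1.0 for each). The remaining members with the smallest p were Hoxc6 (0.24) and Hoxb8 (-0.25) between the targeting vectors, Hoxa2 (0.25) and Hoxd9 (-0.13) for Mylk-shRNA against the control, and Hoxc5 (-0.26), Hoxb3 (-0.13) and Hoxb9 (-0.19) for Rock1/2-shRNA against the control. In the positive fraction Hoxd8 (-0.21, targeting vectors), Hoxd13 (0.73) and Hoxa2 (0.30, both Mylk-shRNA against the control) and Hoxb9 (0.30, Rock1/2-shRNA against the control) completed the list. None of these log2 differences passed the test (adjusted p = 1.0 for each).

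**Figure D4:**
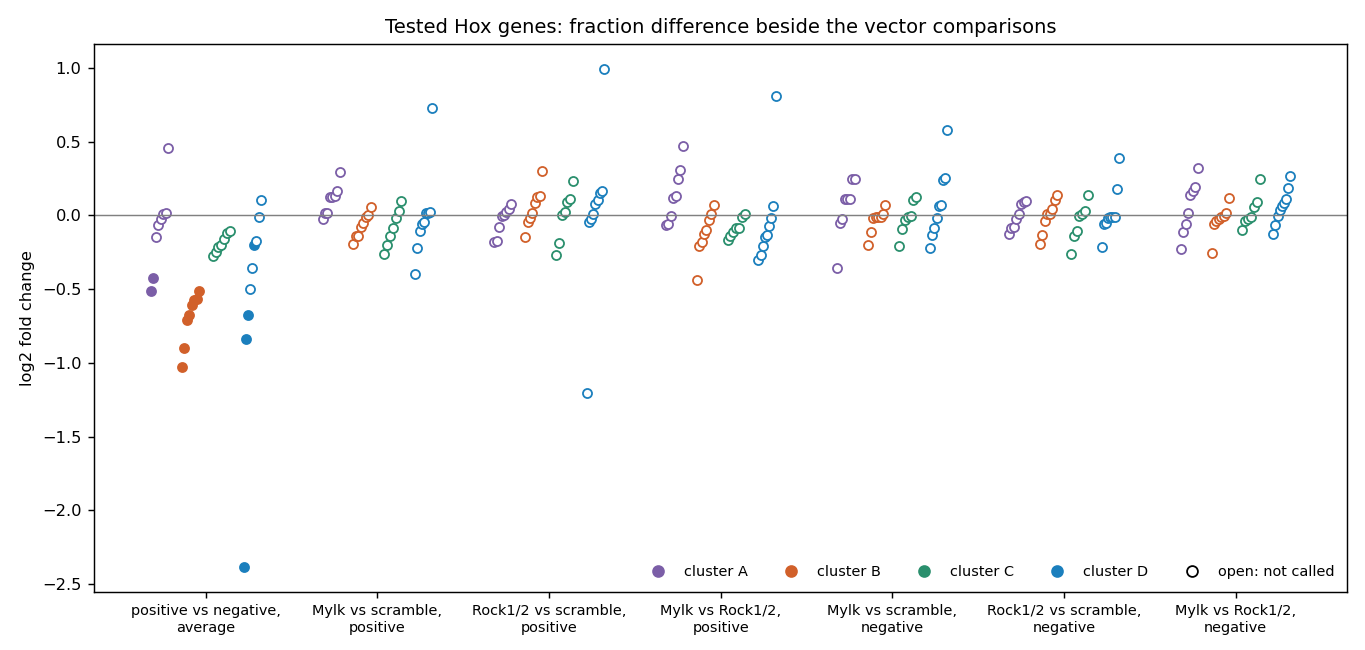
Log2 fold changes of tested Hox genes, coloured by cluster, in the fraction comparison and in the 6 vector comparisons (filled, adjusted p under 0.05). Filled points occur only in the fraction comparison, and the 2 points beyond 0.9 in either direction among the vector comparisons are Hoxd13 and Hoxd1, both below 3 CPM.

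Several Hox genes differed between litters in the same way in every group. Among the 28 members with a mean of at least 5 CPM, litter 3 was the lowest litter in all 6 groups for 5 genes, against 17.5% of all genes at that level, a share like that of the background. They were Hoxa10, Hoxa11, Hoxc10, Hoxd11 and Hoxd12, all from groups 10 to 12. Hoxd12 averaged 15.4 CPM in the 6 libraries of litter 3 (13.3 to 19.5) and 26.4 CPM in the 12 others (13.5 to 40.5). Litter 3 was the highest in all 6 groups for Hoxc8, Hoxc9 and Hoxd4, against 3.94% of all genes. Hoxd4, a hindbrain and cervical gene, had 20.7 CPM in litter 3 (13.8 to 26.0) and 9.98 CPM in the others (4.97 to 14.6), 2.07 times as much. Its mCherry difference was -0.50 (SE 0.34, adjusted p = 0.28) without and -0.46 (adjusted p = 0.0059) with the litter block. Litter 3 libraries also held more mitochondrial counts, and the part of that in these levels was not tested.

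**Figure D5:**
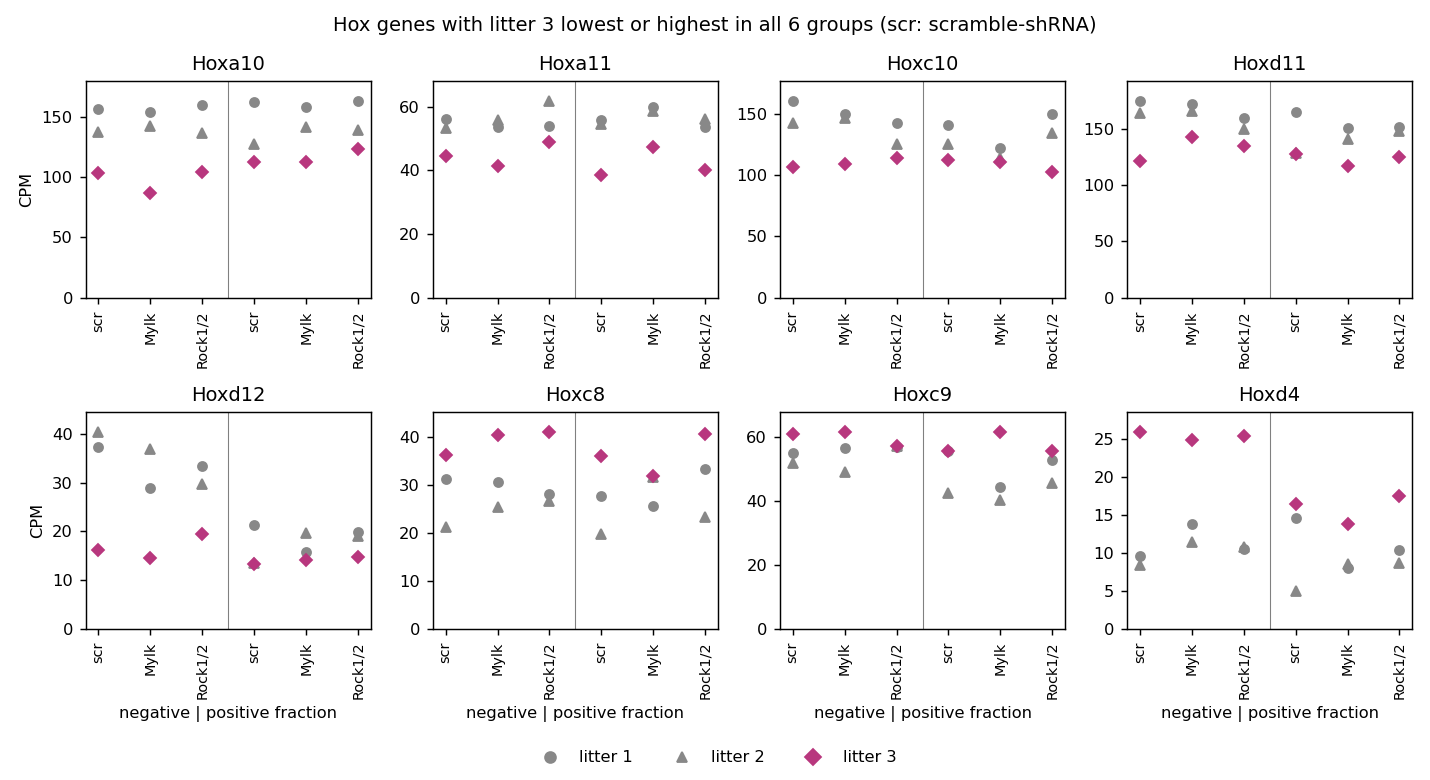
CPM by group for the 8 Hox genes in which litter 3 (pink diamonds) was the lowest or the highest of the litters in all 6 groups; grey symbols are litters 1 and 2. The fraction difference of Hoxd12 is visible in litters 1 and 2 and smaller in litter 3, where the negative libraries are already low.

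Overlapping genes limit some of these values, because the use of strand in counting is not given in the sources used here. In GENCODE M21, 52.9% of the exon bases of Hoxb3 and 27.3% of those of Hoxb2 lie under exons of Hoxb3os on the other strand, and 35.0% of Hoxa11 under Hoxa11os. If strand was not used in counting, reads of these pairs cannot be told apart where their exons overlap. Hoxb3os itself was at 5.35 ± 1.65 CPM (SD, n = 9) in the negative and 2.74 ± 1.02 CPM in the positive fraction, far below Hoxb3 and Hoxb2 in CPM. An antisense gene also covers 20.4% of the exon bases of Hoxa7, and Hoxb5os covers 3.59% of those of Hoxb5. Hoxb4, Hoxb6, Hoxb7, Hoxb8 and Hoxb9 share no exon bases with another gene in that annotation. Hoxd3 and Hoxd4 share exons with each other and with the protein-coding model Gm28230 on the same strand, which covers 53.1% of Hoxd3 and 39.1% of Hoxd4, so the split of counts between them is uncertain. Counts that were not whole numbers occurred in 17 libraries for Hoxd10, 16 for Hoxd11 and 15 for Hoxd3. They did not mark the overlapping genes alone. Such counts occurred in 12 libraries for Hoxb6, which shares no exon bases, but in 6 for Hoxd4 and 2 for Hoxb3.

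The genes around the Hox proteins were followed through 6 gene lists, whose counts stand against the 16% of all genes called lower and 17.6% called higher. Of 18 noncoding genes of the clusters, 16 were in the table and 8 were tested, and 3 fell in the positive fraction. Hoxb5os, antisense to Hoxb5, went from 37.4 ± 3.65 CPM (SD, n = 9) to 16.2 ± 3.18 CPM (log2 fold change -1.28, SE 0.11), lower in 9 of 9 cultures. Hoxb3os fell by 1.01 (adjusted p = 0.0018) and Hoxa11os by 0.44 (adjusted p = 3.3e-04). If strand was not used, reads of Hoxb3os cannot be told apart from those of Hoxb3 and Hoxb2 where their exons overlap. Its fall and theirs may then rest in part on the same reads. Hoxa11os was lower in 9 of 9 cultures while Hoxa11, whose exons it overlaps, was not called. Hotairm1 had a log2 fold change of -0.44 (adjusted p = 0.050, above the threshold).

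The TALE cofactors, homeodomain partners that bind DNA together with Hox proteins, moved mostly the other way: 6 of 9 rose and 2 fell. Pbx3 rose from 33.7 ± 2.62 CPM to 61.1 ± 8.70 CPM (SD, n = 9; log2 fold change 0.80) and Meis1 from 157 ± 10.0 to 266 ± 23.2 CPM (0.71). Pbx2 fell by 0.29. Of the Hox11 partners and kidney targets, 5 of 7 tested fell, among them Pax2 (-1.09), Eya1 (-0.80), Itga8 (-0.48) and Six2 (-0.69), while Gdnf, the signal that draws out the ureteric bud, rose by 0.31. The list median was -0.65 for these genes and 0.32 for the TALE cofactors.

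Among inputs to the clusters, the Cdx genes Cdx1, Cdx2 and Cdx4 reached at most 0.77 CPM in any library. In the Cdx and retinoid list, 1 of 5 tested genes rose and 1 fell, near the shares over all genes. Aldh1a2, which makes retinoic acid, rose by 0.62 and Cyp26b1, which degrades it, fell by 0.95 on the log2 scale. The receptors Rarg and Rarb were not called. Of 17 trithorax and Polycomb regulators, which keep Hox genes on or off, 4 fell and none rose: Eed (-0.33), Kdm6b (-0.43), Cbx2 (-0.39) and Cbx7 (-0.69). These 4 of 17 lie near the share of all genes called lower, and the list median was -0.09. Of 13 tested homeobox genes of the kidney outside the clusters, 10 fell and 1 rose. Prrx1, a gene of mesenchyme, rose by 1.58, while Lhx1 (-2.83), Six4 (-0.96) and Barx1 (-2.12) fell, with a list median of -1.37.

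Cell type markers moved with the fraction as well. The 6 macrophage markers all rose (median 6.18), from 2.20 to 7.52 CPM in sum in the negative to 129 to 314 CPM in the positive libraries. Stromal markers rose for 8 of 9 genes (summed 2374 to 2845 CPM in the negative, 3324 to 5138 CPM in the positive libraries), smooth muscle and mural markers for 5 of 6 (120 to 234 against 321 to 956 CPM) and erythroid markers for 4 of 4 tested of 6 (72.1 to 346 against 201 to 1788 CPM). Early nephron markers fell for 6 of 6 (412 to 721 CPM against 184 to 241 CPM), nephron progenitor markers for 6 of 6 and ureteric tip markers for 4 of 5 (103 to 192 CPM against 88.9 to 136 CPM). Ureteric trunk and collecting duct markers fell for 3 of 5 (37.8 to 66.2 CPM against 22.4 to 46.0 CPM), and endothelial markers fell for 6 of 8 and rose for 1 (203 to 345 CPM against 137 to 257 CPM). Of podocyte markers 2 of 3 tested rose and 1 fell, of proximal tubule markers 1 of 4 tested fell, of neural and glial markers 1 of 2 tested fell, and the adrenal list had 1 tested gene, not called. No marker was at 0 in every library. The part of these shifts in the Hox differences was not tested.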

How the data were processed

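Bulk RNA-seq libraries of 18 sorted cell fractions were analysed. The deposited table holds, for each library, expected counts per gene as the authors made them (22.1 to 27.4% of nonzero values are not whole numbers) and the same values as CPM. Per the submitters' processing notes, FastQC 0.12.1, fastp 0.24.0, STAR 2.7.11, SAMtools 1.22.1, featureCounts (Subread 2.1.1) and MultiQC 1.32 were used with GRCm39; no source used here states the strand or multi-mapping settings. Library totals ran from 3121624 to 12170830.

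Expected counts were rounded, 92 spike-in rows left out, and genes kept by filterByExpr (minimum count 10, minimum total 15), which left 16544. edgeR 4.0.16 in R 4.3.3 fitted robust quasi-likelihood models with TMM scaling to all 18 libraries, with 1 mean per group and 12 residual degrees of freedom. Benjamini-Hochberg adjustment ran over all genes in each of 12 comparisons, and every adjusted p under 0.05 was a call. Unless another tool is named, adjusted p-values come from this fit. It was tested on simulated data. DESeq2 1.42.0 was an alternative, with other size factors, no filter, blocks, and libraries left out.

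The labels give litters as replicate numbers, and the positive and negative fraction of a culture share explants. Deviations from group means correlated at 0.24 to 0.64 between libraries of 1 litter (45 pairs) and at -0.54 to 0.31 between litters (90 pairs). No replicates were duplicates (chi-square per gene 4.29 to 52.1). Members, gene lists and comparisons were chosen with earlier results of these data known. Values of 1 member and of 2 listed genes are not reported here, though counts include them. Named with full values were paralog groups 9, 10 and 11, Hoxb7, up to 10 called members of smallest p per comparison (3 members of smallest p where none was called), the members at the filter's edge, up to 4 genes of smallest p per list, and the targeted genes. Other genes named were chosen after their values were seen. Exon lengths and overlaps used GENCODE M21 and promoters RefSeq, both on GRCm38, for lengths and sequence only.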

Additional observations from a re-analysis of the deposited data

Results flagged for a closer look

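Hoxa11 moved in opposite directions with the targeting vectors. The positive fraction was higher than the negative in all 3 litters with Mylk-shRNA (mean difference 5.03 CPM) and lower in all 3 litters with Rock1/2-shRNA (mean difference -5.08 CPM). The difference between the 2 fraction effects was 0.25 on the log2 scale in a comparison added after the data were seen, and it did not pass edgeR's test (unadjusted p = 0.24, adjusted p = 1.0).

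In CPM, Hoxd1 with Rock1/2-shRNA was below the scramble control in all 3 litters of the positive fraction (mean difference -0.24 CPM). It was above the control in all 3 litters of the negative fraction (mean difference 0.61 CPM), where the litter 3 control was at 0 CPM. The positive libraries held a few Hoxd1 reads each at most. In litter 3 their values were 0.24 and 0.32 CPM at totals of 4084374 and 3153498 counts, so they differed through depth and not reads. The interaction was -1.60 on the log2 scale in edgeR's test (unadjusted p = 0.18, adjusted p = 1.0), on a gene with 166 counts in all, most of them in negative libraries.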

How the results depend on the processing

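In the average over vectors, all 8 cluster B calls between the fractions held in every alternative fit run for it. The count of 14 called Hox genes became 23 with the replicate block of litter and ranged from 11 to 16 when a library or litter 3 was left out. With the litter block the pairing gave 13 calls with scramble-shRNA (6 without it), 18 with Mylk-shRNA (9) and 11 with Rock1/2-shRNA (7). With each culture as a block the counts were 11, 14 and 11, against 21%, 22.2% and 18.3% of all genes in either direction. A fit of only the groups compared gave 5 with Mylk-shRNA. In edgeR's test it lost Hoxb4 (adjusted p = 0.072), Hoxb5 (adjusted p = 0.056) and Hoxb7 (adjusted p = 0.058) with that vector. Of cluster B, fits of this kind added Hoxb4, Hoxb7 and Hoxb8 with Rock1/2-shRNA and Hoxb5 with scramble-shRNA. Leaving out libraries gave 4 to 9 calls with scramble-shRNA, 6 to 12 with Mylk-shRNA and 3 to 10 with Rock1/2-shRNA. The vector comparisons and interactions gave 0 calls in every alternative. With no filter the median of all genes moved from -0.03 to -0.16 on the log2 scale. Signs turned for uncalled values near 0: Hoxa10 at -0.0065 and Hoxa2 at -0.0025 with no filter, and without litter 3 Hoxa10 at -0.051, Hoxa5 at 0.045 and Hoxd9 (Mylk-shRNA against the control, negative fraction) at 0.0093. Leaving out libraries turned the sign of 4 uncalled members in 23 fits, and 6 uncalled members gained a call in 10 fits that left out 1 library. The causes were not tested. Members near or below 1 CPM are limited by depth.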
